A study of Mus musculus with 17 samples.

Results

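The MHC class I and peptide loading genes described here are 10 genes of the antigen presentation pathway, followed through mouse macrophages: the classical class I heavy chains H2-K1 and H2-D1, their light chain B2m, the peptide transporter subunits Tap1 and Tap2, tapasin (Tapbp), the immunoproteasome subunits Psmb8, Psmb9 and Psmb10, and the class I transactivator Nlrc5. They were chosen by symbol, and all 10 were found among the 24453 gene models of the deposited table. PolyA RNA-seq values were available for 13 libraries. Immortalised bone marrow-derived macrophages (iBMDMs) of C57Bl/6EiJ origin, transformed by retroviral Myc and BRAF(V600E), carried Cas9 in all 4 of their groups, and each group gave 2 libraries. Of the groups, 3 are labelled as CRISPR knockouts, Atf3KO, JunKO and JunDKO for the genes Atf3, Jun and Jund, and the fourth as a scramble control whose titles read zsGreen (Scramble). Infected cells were sorted on a fluorescent marker of the guide virus, and whether a group was a pool or a clone is not given in the sources used here. All iBMDMs were unstimulated (Vehicle). Thioglycollate-elicited macrophages (TGEMs), primary peritoneal cells from young adult mice of the inbred strains C57Bl/6EiJ and Balb/cJ, were given vehicle (Veh) or the TLR4 ligand Kdo2 lipid A (KLA) for 1 h. There was 1 Veh and 1 KLA library for C57Bl/6EiJ and 1 Veh and 2 KLA libraries for Balb/cJ, and the labels do not say which libraries of a group came from separate cultures or animals. The p-values measure the spread between these libraries, and how much of it is technical is not known.

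In this pathway proteins in the cytosol are cut into peptides by the proteasome, whose catalytic subunits are exchanged for Psmb8, Psmb9 and Psmb10 in cells that have seen interferon. TAP carries the peptides into the endoplasmic reticulum, tapasin holds empty class I molecules at TAP, and loaded complexes of heavy chain and B2m travel to the cell surface, where CD8 T cells read them. Macrophages make class I molecules at all times and raise them after interferon, through IRF1 and NLRC5. The C57Bl/6 and BALB/c strains carry different H2 haplotypes, b and d, with different alleles of the heavy chains.

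The libraries were checked first. Depth, recovered from the step of the RPKM values, was 1553296 to 18444437 reads. The libraries labelled Atf3KO held reads of 10425 and 10631 gene models against 11884 to 12533 in the other 6 iBMDM libraries. Their depth, 4397164 and 7236839 reads, was above that of every other iBMDM library but JunDKO replicate 2 (18444437). The reason for the fewer models was not tested. Atf3 itself was at 80.7 and 77.4 RPKM in Scramble and higher, at 154 and 169, where it is the labelled target. Jun was at 17.6 and 18.5 RPKM in Scramble and at 26.2 and 20.5 in the libraries labelled JunKO, and Jund at 9.19 and 8.33 in Scramble and at 6.94 and 6.07 in those labelled JunDKO. A short edit need not remove an mRNA, so these levels do not check the editing, and the knockouts are called by their labels. At the protein level the authors report western blots as their check of knockout efficiency. They also report a substantial loss of Jun ChIP-seq peaks in Jun knockout iBMDMs. Every library is labelled male, yet the 5 TGEM libraries held 19.2 to 28.1 RPKM of Xist and at most 0.749 RPKM over 4 Y-linked genes, while iBMDMs held at most 0.029 RPKM of Xist. All 9 macrophage markers were at 1 RPKM or more in every library. In TGEMs summed markers reached 10.1 to 23.9 RPKM for B cells, 30.9 to 68.4 for mesothelial cells and fibroblasts, 1.78 to 13.3 for mast cells and 0.794 to 13.4 for neutrophils (S100a9, Ly6g and Camp at 0), while T cell, natural killer (NK) cell, dendritic cell and eosinophil markers summed to at most 4.15. In iBMDMs the same lists summed to at most 0.582, except NK cell (1.62), eosinophil (6.15) and neutrophil markers (41.1, with 5 of 6 at 0). Less RNA per cell and fewer cells of a type cannot be told apart in such bulk libraries.

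The heavy chains and B2m were among the most abundant mRNAs. Of the members 7 lie on chromosome 17 within the H2 region (GRCm38, the mm10 build). H2-K1 spans 33996012 to 34000333 on the minus strand and H2-D1 35263094 to 35267497 on the plus strand, each with 8 exons. B2m lies on chromosome 2 (122147687 to 122153082, plus strand, 4 exons). In Scramble H2-K1 measured 466 and 407 RPKM, H2-D1 581 and 496 and B2m 1908 and 1825, so that B2m ranked 10 of all gene models by mean. Reads of paralogues limit the heavy chains: 17.4% of the 50-base windows of H2-D1 and 8.64% of those of H2-K1 occur in transcripts of other genes, and the separate H2-L model lies inside the span of H2-D1 on this genome, so the table cannot assign reads between them. No window of B2m was shared.

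The promoters of both heavy chains and of B2m are shown because these genes are the output of the pathway. Those of Tap1 and Tapbp are shown because both passed with the heavy chains in the main fit for the Atf3KO label. Tapbp did so in only some of the settings given below. Each is the RefSeq window (GRCm38.p6) from 250 bases before to 50 bases after a start, given 5′ to 3′ on the gene's strand, and 8 of the 10 members had one. Capitals mark matches, on either strand, to the motifs IRF (a pair of GAAA runs with any 2 bases between them), AP-1 (TGANTCA), CRE (TGACGTCA), GAS (TTCNNNGAA), NF-kB (GGG, any 5 bases, then CC) and CCAAT. Overlapping matches are merged, and NF-kB matches read on both strands overlap each other.
H2-K1, chr17:34000284-34000583, minus strand: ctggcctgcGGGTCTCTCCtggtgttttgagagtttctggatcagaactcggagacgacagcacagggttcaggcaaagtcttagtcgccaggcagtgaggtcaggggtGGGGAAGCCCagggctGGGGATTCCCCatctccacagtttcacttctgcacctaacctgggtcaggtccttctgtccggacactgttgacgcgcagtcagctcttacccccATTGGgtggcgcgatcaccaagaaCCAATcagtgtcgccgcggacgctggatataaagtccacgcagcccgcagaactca
H2-D1, chr17:35262844-35263143, plus strand: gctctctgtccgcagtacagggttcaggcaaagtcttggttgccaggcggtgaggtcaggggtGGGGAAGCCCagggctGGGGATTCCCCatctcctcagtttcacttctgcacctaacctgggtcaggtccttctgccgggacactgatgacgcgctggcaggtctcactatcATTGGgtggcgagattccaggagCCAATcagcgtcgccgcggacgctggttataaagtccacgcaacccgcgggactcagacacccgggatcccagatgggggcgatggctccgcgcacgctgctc
B2m, chr2:122147437-122147736, plus strand: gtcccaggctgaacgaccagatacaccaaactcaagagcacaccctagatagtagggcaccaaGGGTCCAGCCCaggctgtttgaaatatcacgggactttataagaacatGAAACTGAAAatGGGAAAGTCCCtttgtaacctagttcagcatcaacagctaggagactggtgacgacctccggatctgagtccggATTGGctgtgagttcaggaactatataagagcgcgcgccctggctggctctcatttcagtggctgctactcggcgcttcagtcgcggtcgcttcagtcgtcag
Tap1, chr17:34187306-34187605, plus strand: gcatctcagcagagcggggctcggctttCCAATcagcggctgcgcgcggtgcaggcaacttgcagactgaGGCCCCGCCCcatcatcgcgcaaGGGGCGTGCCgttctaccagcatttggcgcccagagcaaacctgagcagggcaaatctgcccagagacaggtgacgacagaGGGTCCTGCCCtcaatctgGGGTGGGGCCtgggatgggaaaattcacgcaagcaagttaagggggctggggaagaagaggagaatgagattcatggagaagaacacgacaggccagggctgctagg
Tapbp, chr17:33919228-33919527, plus strand: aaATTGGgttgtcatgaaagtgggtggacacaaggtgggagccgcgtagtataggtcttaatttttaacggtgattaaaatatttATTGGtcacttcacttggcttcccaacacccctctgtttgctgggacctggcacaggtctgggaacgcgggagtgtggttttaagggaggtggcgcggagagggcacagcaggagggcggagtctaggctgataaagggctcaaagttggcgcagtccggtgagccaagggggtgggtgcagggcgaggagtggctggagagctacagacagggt

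The windows of H2-K1 and H2-D1 were alike, with 229 of 253 aligned bases identical (90.5%) and an unbroken stretch of 47 identical bases over the paired NF-kB matches (-155 to -109 from the H2-K1 start and -201 to -155 from that of H2-D1). B2m held the one IRF match among the members, GAAACTGAAA at -139 to -130, beside NF-kB matches at -127 to -117. Psmb8 held the one GAS match, TTCCCAGAA at -97 to -89. The AP-1 and CRE letters, those of sites for Jun and ATF dimers, were found in none of the 8 members' windows and in 7.81% and 1.79% of all 32851 promoter windows. IRF letters were in 3.44% of all windows, GAS in 8.3%, NF-kB in 50.8% (5 of the 8 members) and CCAAT in 37.4% (6 of 8). Such matches describe the letters of a short window and no more. Other forms of these sites were not searched, so a window without a match may still hold one.

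RPKM is per length of the model, which allows a rough order of levels between genes. GC content (41.3% in B2m, 52.9% to 58.8% in the other members) and reads of paralogues were not adjusted for in this order. Over the 6 iBMDM libraries not labelled Atf3KO the median fell from B2m (1867 RPKM) through H2-D1 (469) and H2-K1 (408) to Tapbp (68.4), Psmb8 (68.3), Psmb10 (25.6), Psmb9 (21.7), Tap1 (17.5), Tap2 (13.2) and Nlrc5 (7.57). B2m stood apart from the heavy chains, and H2-D1 and H2-K1 overlapped each other and stood apart from Tapbp. Tapbp and Psmb8 overlapped, Psmb10, Psmb9, Tap1 and Tap2 each overlapped the next, and Nlrc5 lay below all others in every library. The order differed in single libraries, since Tap2 (13.2 RPKM) lay above Tap1 (9.95) and Psmb9 (6.59) in Scramble replicate 2, and H2-D1 (1343) above B2m (1297) in Atf3KO replicate 2. The fewest reads were 9 of Psmb9 (Scramble replicate 2), and in Balb/cJ Veh there were 21 of Psmb9, 29 of Nlrc5 and 32 of Tap2. In iBMDMs the fewest were 37 for Tap2, 43 for Psmb10, 50 for Tap1 and 73 for Nlrc5, so counting error is largest for these low members.

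**Figure D1:**
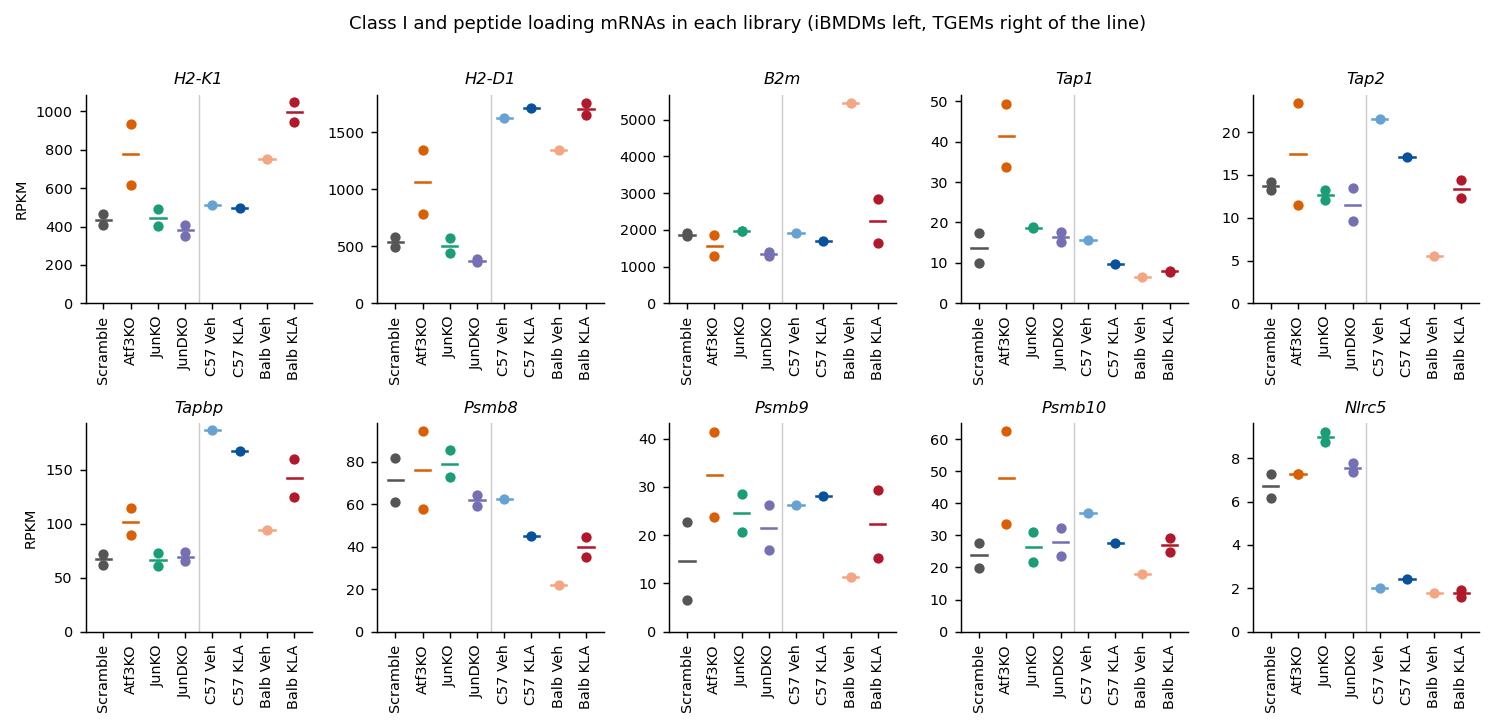
RPKM of the 10 members in each of the 13 libraries, 1 panel a gene with its own axis from 0 and 1 point a library. Horizontal lines are group means and the vertical line separates iBMDMs from TGEMs. Both libraries labelled Atf3KO lie above the other iBMDM libraries for H2-K1, H2-D1, Tap1, Tapbp and Psmb10, and Nlrc5 is at 1.59 to 2.45 RPKM in TGEMs against 6.19 to 9.22 in iBMDMs.

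The comparison of iBMDMs labelled Atf3KO with Scramble asked which mRNAs differ when ATF3, a stress-induced bZIP factor that pairs with Jun proteins, is targeted. Of the 10 members 4 rose, namely both heavy chains, Tap1 and Tapbp, and 0 fell, where 20.7% of all 10691 models tested rose, 20.6% fell and 41.2% passed in either direction. H2-K1 was at 466 and 407 RPKM in Scramble and at 619 and 935 with the Atf3KO label. H2-D1 was at 581 and 496 RPKM in Scramble and at 784 and 1343 with that label. Both libraries labelled Atf3KO were above every other iBMDM library for both heavy chains, and replicate 2 was the highest. The log2 fold change was 0.80 ± 0.23 for H2-K1 (SE, n = 2 per group, limma adjusted p = 0.0251) and 0.93 ± 0.27 for H2-D1 (adjusted p = 0.0242). The H2-L model, whose span lies inside H2-D1, rose by 1.38 ± 0.32 (adjusted p = 0.0116), from 425 and 419 RPKM to 746 and 1620.1.

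Tap1, the subunit of the peptide transporter that pairs with Tap2, had the largest change of the 10 members. It was at 17.3 and 9.95 RPKM in Scramble and at 33.6 and 49.4 with the Atf3KO label, with no overlap, a log2 fold change of 1.56 ± 0.29 (adjusted p = 0.00464). It passed in all 16 alternatives tried, with log2 fold changes of 0.96 to 1.93. Tap2 (chr17:34204479-34216321) lies downstream of Tap1 (chr17:34187556-34197225) on the same strand and did not pass, at 11.48 and 23.4 RPKM against 14.2 and 13.2 (0.25 ± 0.32, adjusted p = 0.551). Its value in Atf3KO replicate 1 was below both Scramble values. The ratio of Tap1 to Tap2 was 2.93 and 2.11 in the libraries labelled Atf3KO and 0.753 to 1.85 in the other 6 iBMDM libraries. Tapbp, which bridges class I molecules and the transporter, measured 89.5 and 115 RPKM against 71.7 and 62.1 (0.59 ± 0.20, adjusted p = 0.0418). It passed in 6 of the 16 alternatives, and in particular did not at equal library medians (adjusted p = 0.0743), after quantile normalization (adjusted p = 0.095) or with a replicate block (adjusted p = 0.0562). H2-K1 and H2-D1 each passed in 10 of 16, not with no filter on low values, in a fit of these 2 groups alone, with a 2-fold change also required, or in 3 of the fits that left out 1 library.

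The immunoproteasome subunits and the remaining members did not pass. Psmb9, whose start faces that of Tap1 across a shared promoter (their windows share 275 bases), measured 23.7 and 41.4 RPKM against 22.7 and 6.59 (1.27 ± 0.51, adjusted p = 0.079), and its 2 Scramble libraries rest on 35 and 9 reads. Psmb10 measured 33.4 and 62.6 RPKM against 27.6 and 19.9 (0.94 ± 0.34, adjusted p = 0.0543). Psmb8 measured 57.65 and 94.3 RPKM against 81.9 and 61.1 (0.06 ± 0.26, adjusted p = 0.873), the libraries of both groups overlapping. B2m measured 1849.5 and 1297 RPKM against 1908 and 1825 (-0.27 ± 0.20, adjusted p = 0.305), and Nlrc5 7.29 and 7.28 against 7.29 and 6.19 (0.10 ± 0.19, adjusted p = 0.697). B2m to heavy chain ratios, B2m over the sum of H2-K1 and H2-D1, were 1.32 and 0.569 in the libraries labelled Atf3KO and 1.77 to 2.34 in the other 6 iBMDM libraries. B2m differs from the heavy chains in GC content, and these ratios were not adjusted for it.

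Many genes moved in this comparison, and of 9 macrophage markers Mertk and Cd68 were higher and 0 lower. The members' median log2 fold change was 0.70, and that of all tested models 0.05. Gene models richer in GC also had higher fold changes (Spearman's rho 0.50 across 10591 models, which are not independent replicates), and 9 of the members have a GC content of 52.9% to 58.8% (B2m 41.3%). The 2026 models of 55% to 60% GC had a median log2 fold change of 0.65, and 44% of them passed. After the GC trend of each library was removed, Tap1 (0.96 ± 0.19, adjusted p = 0.00584), H2-D1 (0.49 ± 0.14, adjusted p = 0.0273) and H2-K1 (0.32 ± 0.11, adjusted p = 0.0465) passed with smaller values, Tapbp was at 0.02 ± 0.11 (adjusted p = 0.902), and Psmb8 passed in the other direction (-0.44 ± 0.13, adjusted p = 0.0327). B2m changed sign, to 0.41 ± 0.16 (adjusted p = 0.0648), which lies between the values of H2-K1 and H2-D1 in that fit. Without Atf3KO replicate 2, H2-K1 (0.51, adjusted p = 0.0993), H2-D1 (0.55, adjusted p = 0.0931) and Tapbp (0.42, adjusted p = 0.153) did not pass, and Tap1 did (1.29, adjusted p = 0.0321). That library carries a later label date than the other 7 iBMDM libraries. H2-K1, H2-D1 and Tapbp also did not pass without either Scramble library.

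**Figure D2:**
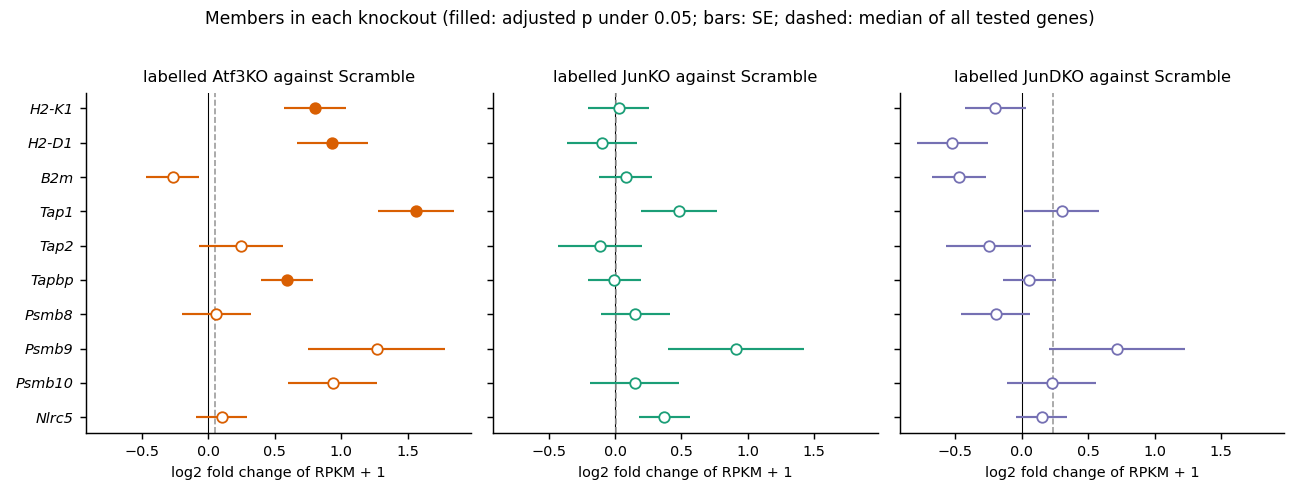
Log2 fold change of RPKM + 1 of the 10 members in the libraries labelled Atf3KO, JunKO and JunDKO against Scramble, with bars of 1 SE (2 libraries a group). Filled points have an adjusted p under 0.05 and the dashed line is the median of all tested models. Filled points are H2-K1, H2-D1, Tap1 and Tapbp in the libraries labelled Atf3KO, and there are 0 in the other 2 panels.

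**Figure D3:**
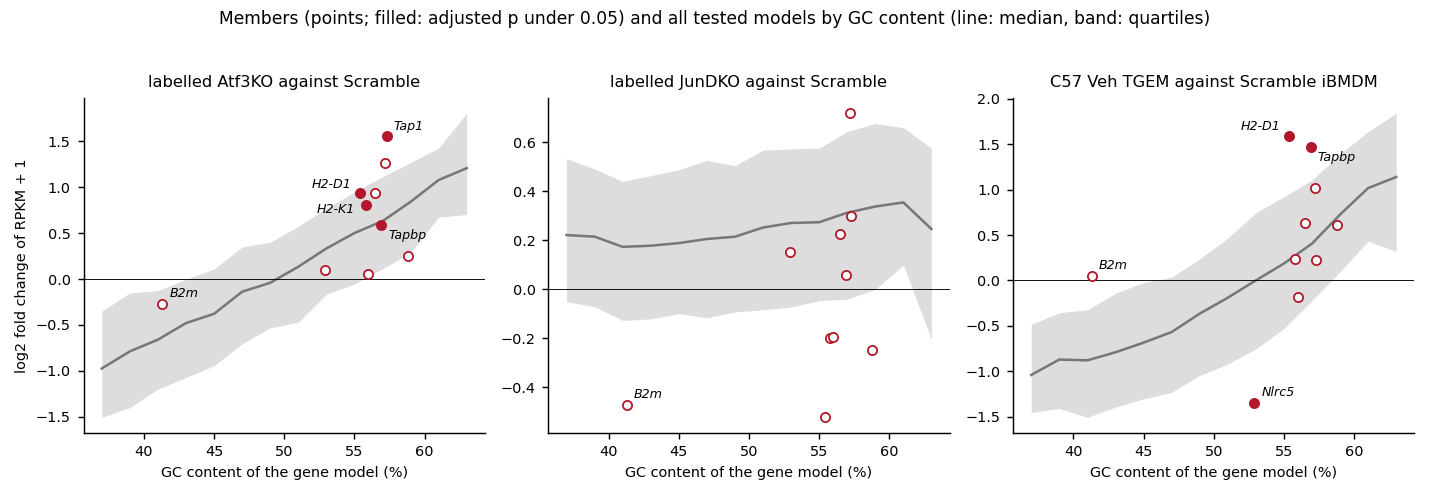
Log2 fold change of RPKM + 1 against the GC content of the gene model in percent, for 3 comparisons. The line and band are the median and quartiles of all tested models in steps of 2 percentage points of GC, and points are members, filled at an adjusted p under 0.05. In the libraries labelled Atf3KO the line climbs with GC and Tapbp lies near it, while Tap1 lies above the band.

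Here and below, genes said to lead a list have the largest changes among its passing genes at 16 RPKM or more in either group. Counts of the lists take genes averaging 1 RPKM or more in both groups compared, since a gene tested through one group alone had to differ. They count gene models, some of which lie on the span of another. H2-L lies on that of the member H2-D1, and H2-T9 and H2-T22, H2-Q6 and H2-Q8, and H2-Q7 and H2-Q9 are such pairs. Passes of such models are not separate results, and counts by locus were not made. Of 11 class I and class I-like chains other than the members, 2 rose and 0 fell (20.7% of all models rose). They were H2-L, on the span of H2-D1, and Hfe, the class I-like regulator of iron uptake (0.93 ± 0.25, adjusted p = 0.0193). Of 12 other loading and trimming genes 0 rose and 3 fell (20.6% of all models fell, a share near this one), led by the aminopeptidases Lnpep (-1.52 ± 0.29, adjusted p = 0.00552) and Erap1 (-0.92 ± 0.23, adjusted p = 0.0144), which trim peptides, and the Erap1 change did not pass after the GC trend was removed. The 2 subunits of the PA28 proteasome activator went opposite ways. Psme1 rose from 61.3 and 78.8 RPKM to 159 and 140.2 (1.09 ± 0.20, adjusted p = 0.00501), and Psme2 fell from 83.3 and 78.2 RPKM to 18.3 and 13.7 (-2.28 ± 0.20, adjusted p = 0.000323). Reads of Psme2 can also come from its near-identical copy Psme2b, since 62.2% of its 50-base windows are shared. The constitutive subunits that Psmb8, Psmb9 and Psmb10 replace were at 90.9 and 150.1 RPKM (Psmb5), 89.4 and 118 (Psmb6) and 112 and 88.6 (Psmb7) in the libraries labelled Atf3KO, and did not pass against Scramble (adjusted p = 0.283, 0.758 and 0.48).

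Of 26 regulators of class I transcription 5 rose and 5 fell, shares near the 20.7% and 20.6% of all models. Rfx5, the DNA-binding partner of NLRC5 on class I promoters, rose from 6.57 and 6.15 RPKM to 12.3 and 9.76 (0.70 ± 0.21, adjusted p = 0.0299), a change that did not pass at equal library medians or after quantile normalization. The largest changes above 16 RPKM were Tyk2, a kinase of the interferon receptor (0.99 ± 0.21, adjusted p = 0.00797; not passing after the GC trend was removed), Stat2 (0.77 ± 0.17, adjusted p = 0.01), Irf2, which competes with IRF1 (-0.83 ± 0.19, adjusted p = 0.00997), and Nfya, which binds CCAAT (-0.77 ± 0.18, adjusted p = 0.0107). Irf1 was at 12.6 and 18.8 RPKM against 20.2 and 21.99 and Irf8 at 33.2 and 47.2 against 36.9 and 27.2, and neither passed (adjusted p = 0.155 and 0.295). Of 26 interferon response genes 5 rose, led by Bst2 (1.23 ± 0.19, adjusted p = 0.00228) and Isg15 (0.85 ± 0.17, adjusted p = 0.00723), and 5 fell, again near the shares of all models, led by Ifit1 (-2.93 ± 0.19, adjusted p = 9.64e-05) and Rsad2 (-1.79 ± 0.23, adjusted p = 0.00138).

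The libraries labelled JunKO did not differ detectably from Scramble in any member. The number passing was 0 of 10, where 0.281% of all 10691 models passed (limma), and 0 members had an unadjusted p under 0.05 (7.88% of all models). H2-K1 measured 490.1 and 403 RPKM (0.03 ± 0.23, adjusted p = 0.995) and H2-D1 569.6 and 441 (-0.10 ± 0.27, adjusted p = 0.976). B2m measured 1975 and 1973 RPKM (0.08 ± 0.20, adjusted p = 0.973). Of these, both JunKO values lay above both Scramble values in B2m alone, and the same held for Tap1 and Nlrc5, so that 3 of 10 members did not overlap (37.2% of all models). Tap1 measured 18.6 and 18.9 RPKM (0.48 ± 0.29), Tap2 13.3 and 12.0 (-0.11 ± 0.32), Tapbp 72.65 and 61.0 (0.00 ± 0.20), Psmb8 85.4 and 72.5 (0.15 ± 0.26), Psmb9 20.6 and 28.5 (0.91 ± 0.51), Psmb10 31.2 and 21.8 (0.15 ± 0.34) and Nlrc5 8.76 and 9.22 (0.37 ± 0.19), with adjusted p of 0.73 to 1 among these 7. Of the other class I chains, loading genes, proteasome partners, regulators and interferon response genes 0 passed.

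The libraries labelled JunDKO held the lowest H2-D1 and B2m values outside the Atf3KO label, but 0 of 10 members passed against Scramble, where 11.7% of all models did, and 1 member had an unadjusted p under 0.05 (27.5% of all models). The median log2 fold change was -0.07 over the members and 0.24 over all tested models, a shift that scaling to equal medians takes out. H2-D1 measured 386 and 361 RPKM (-0.52 ± 0.27, adjusted p = 0.243), H2-K1 409 and 352 (-0.20 ± 0.23, adjusted p = 0.612) and B2m 1411 and 1284 (-0.47 ± 0.20, adjusted p = 0.174). For H2-D1 and B2m both libraries lay below both Scramble libraries, while for H2-K1 the groups overlapped. Nlrc5 did not overlap in the other direction, so that 3 of 10 members did not overlap (61.6% of all models). With the GC trend of each library removed B2m, H2-D1 and H2-K1 passed as lower, and B2m also did at equal library medians and in a fit without the libraries labelled Atf3KO, while after quantile normalization its value was 0.17. In that fit with a replicate block, added after seeing the data, B2m and H2-D1 passed as lower and H2-K1 did not pass. Tap1 measured 17.8 and 15.2 RPKM, Tap2 9.62 and 13.4, Tapbp 74.3 and 65.1, Psmb8 64.1 and 59.3, Psmb9 16.9 and 26.2, Psmb10 32.2 and 23.6 and Nlrc5 7.38 and 7.76, with adjusted p of 0.401 to 0.877.

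Around these members several lists had passing genes in the libraries labelled JunDKO. Of 9 macrophage markers 1 was higher (Mertk) and 1 lower (Itgam), and S100a8, a neutrophil marker, was listed at 0 in both libraries against 34.8 and 33.2 RPKM in Scramble. The part of these markers in the members' values was not tested. Of 11 other class I and class I-like chains 2 rose and 3 fell (6.93% of all models rose and 4.82% fell). Hfe rose from 9.37 and 7.16 RPKM to 38.7 and 32.1 (1.98 ± 0.25, adjusted p = 0.00192) and Fcgrt, the neonatal Fc receptor chain that also pairs with B2m, from 5.69 and 4.05 RPKM to 13.03 and 20.1 (1.56 ± 0.27, adjusted p = 0.00846). H2-T23, the mouse Qa-1 chain read by NK cells, fell from 71.7 and 72.4 RPKM to 38.9 and 24.1 (-1.21 ± 0.28, adjusted p = 0.0279), and H2-T9, which shares its locus with H2-T22 in the table, fell by 1.17 on the log2 scale (adjusted p = 0.00842). Of 12 loading genes 3 fell, led by the chaperones Hspa5 (-1.91 ± 0.22, adjusted p = 0.00113) and Calr, a part of the loading complex (-1.12 ± 0.18, adjusted p = 0.00583; not passing after quantile normalization). Of 25 interferon response genes 10 fell and 0 rose, with Ifit1 at -1.88 ± 0.19 (adjusted p = 0.000638) and Rsad2 at -1.76 ± 0.23 (adjusted p = 0.0026). Psme1 rose (0.93 ± 0.20, adjusted p = 0.0231), although not at equal medians or without the GC trend, and 1 of 26 regulators rose. Irf1 was at 23.6 and 20.4 RPKM and Irf8 at 44.98 and 44.4 (adjusted p = 0.897 and 0.214).

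The knockouts were then compared with each other, since a pass in one and not in another is no test of a difference. Between the libraries labelled JunDKO and Atf3KO 3 members differed and all were lower in JunDKO, where 14.9% of all models were lower, 25.9% higher and 40.7% passed in all. H2-D1 differed by -1.46 ± 0.27 (adjusted p = 0.00395), Tap1 by -1.26 ± 0.29 (adjusted p = 0.00992) and H2-K1 by -1.002 ± 0.23 (adjusted p = 0.0106). Of 16 alternatives H2-D1 passed in all, H2-K1 in 15 and Tap1 in 14. Tapbp did not pass (-0.54 ± 0.20, adjusted p = 0.0589), nor did the other 6 members. Fold changes went with GC content here as well (rho -0.45), and models of 55% to 60% GC had a median of -0.37, of which 32.1% passed. With the GC trend removed H2-D1 (-1.25), Tap1 (-0.93) and H2-K1 (-0.77) passed, and B2m passed too (-1.01, adjusted p = 0.00181). B2m did not pass at equal library medians (-0.36, adjusted p = 0.178) or after quantile normalization, where its sign changed (0.47, adjusted p = 0.177). Between the libraries labelled Atf3KO and JunKO 4 members were higher in Atf3KO, where 17% of all models were higher, 18.5% lower and 35.5% passed in all: Tap1 (1.08 ± 0.29, adjusted p = 0.0216), H2-D1 (1.03 ± 0.27, adjusted p = 0.0199), H2-K1 (0.77 ± 0.23, adjusted p = 0.0329) and Tapbp (0.60 ± 0.20, adjusted p = 0.0457). That count fell to 0 when Atf3KO replicate 2 or JunKO replicate 2 was left out, and to 1 when JunKO replicate 1 was. The relation to GC was the same as against Scramble (rho 0.50), and models of 55% to 60% GC had a median of 0.60, of which 38.5% passed. With the GC trend removed H2-D1 (0.64, adjusted p = 0.011) and H2-K1 (0.36, adjusted p = 0.0356) passed, Tap1 (0.56) and Tapbp (0.10, adjusted p = 0.493) did not, and Psmb8 passed as lower (-0.52, adjusted p = 0.019). Without JunDKO replicate 2, the JunDKO and Atf3KO labels differed in 1 member. Between the libraries labelled JunDKO and JunKO 0 members passed (8.14% of all models). B2m had the one unadjusted p under 0.05 there (-0.55 ± 0.20, adjusted p = 0.139; 24.9% of all models). After quantile normalization the value of B2m changed sign, to 0.25 (adjusted p = 0.647). B2m passed as lower at equal library medians (adjusted p = 0.0467) and in a fit without the libraries labelled Atf3KO (adjusted p = 0.0333). In that fit with a replicate block B2m (adjusted p = 0.00202) and H2-D1 (adjusted p = 0.0183) passed, and with the GC trend removed B2m, H2-D1, H2-K1 and Psmb8 did, all as lower.

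Outside the members, the libraries labelled JunDKO had 2 higher and 6 lower of 11 other class I chains against Atf3KO (25.9% of all models were higher and 14.9% lower). H2-L, on the span of H2-D1 (-1.84 ± 0.32, adjusted p = 0.00334), and H2-T9 (-1.58 ± 0.20, adjusted p = 0.000897) led the falls and Fcgrt (1.18 ± 0.27, adjusted p = 0.0106) the rises. Psme2 was higher there by 2.13 ± 0.20 (adjusted p = 0.000324), and Psmb5, the constitutive counterpart of Psmb8, was lower by 1.14 on the log2 scale (adjusted p = 0.0166). Of 25 interferon response genes 1 was higher and 10 lower in the same comparison. Against JunKO they had 2 higher and 2 lower of 11 other class I chains, where 4.33% of all models were higher and 3.81% lower. The 2 lower were H2-T9 and H2-T22, which share a locus. Of 25 interferon response genes 0 were higher and 15 lower there. Against JunKO the libraries labelled Atf3KO had 3 higher and 0 lower of 11 other class I chains and 4 higher and 8 lower of 26 interferon response genes, where 17% of all models were higher and 18.5% lower.

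The TGEM comparison asked how the pathway responds to 1 h of TLR4 stimulation. Of the 10 members 0 passed, where 1.53% of 10357 models did, 1.29% higher and 0.232% lower (limma, additive with strain, 2 residual degrees of freedom), and 0 had an unadjusted p under 0.05 (15% of models). The regulator Irf1 rose. Irf1 measured 14.7 RPKM with Veh and 249 with KLA in C57Bl/6EiJ, and 21.1 with Veh and 245 and 272 with KLA in Balb/cJ (3.74 ± 0.27, adjusted p = 0.000775). Of 27 regulators 2 rose and 0 fell, the other being Relb, an NF-kB subunit (1.79 ± 0.29, adjusted p = 0.0327). Ifnb1, which encodes interferon beta, was listed at 0 in both Veh libraries and at 3.21, 16.3 and 10.3 RPKM with KLA, and no test is given, since it was kept through the KLA libraries alone. Of 23 interferon response genes Isg15 rose (4.59 ± 0.46, adjusted p = 0.0032) and 0 fell. Irf8 and Rfx5 did not pass (adjusted p = 0.364 and 0.374).

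Among the members H2-D1 measured 1624 RPKM with Veh and 1718 with KLA in C57Bl/6EiJ, and 1343 with Veh and 1757 and 1656 with KLA in Balb/cJ (0.23 ± 0.24, adjusted p = 0.678). H2-K1 measured 512 and 499 RPKM in C57Bl/6EiJ, and 752 with Veh and 1051 and 943 with KLA in Balb/cJ (0.21 ± 0.26, adjusted p = 0.725). B2m measured 1925 and 1697 RPKM in C57Bl/6EiJ, and 5463 with Veh and 2834 and 1630.0 with KLA in Balb/cJ (-0.85 ± 0.37, adjusted p = 0.34). B2m was lower with KLA in all 3 KLA libraries than in the Veh library of the same strain, and the Balb/cJ Veh library held its highest value of all 13 libraries.

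Tap1 measured 15.6 RPKM with Veh and 9.84 with KLA in C57Bl/6EiJ, and 6.40 with Veh and 7.86 and 8.07 with KLA in Balb/cJ. Tap2 measured 21.5 and 17.1 RPKM in C57Bl/6EiJ, and 5.52 with Veh and 14.4 and 12.3 with KLA in Balb/cJ. Tapbp measured 187 and 168 RPKM, and 94.4, 159.9 and 125. These 3 genes were lower with KLA in C57Bl/6EiJ and higher with KLA in both Balb/cJ libraries. Psmb8 measured 62.4 and 45.03 RPKM in C57Bl/6EiJ, and 22.1 with Veh and 35.1 and 44.5 with KLA in Balb/cJ. Psmb10 measured 36.9 and 27.6 RPKM, and 18.0, 24.9 and 29.2. Psmb9 measured 26.3 and 28.1 RPKM, and 11.2, 15.3 and 29.3. Psmb8 and Psmb10 showed the same split, as H2-K1 did by a small margin, while Psmb9 did not, so that 6 of the 10 members lay lower with KLA in C57Bl/6EiJ and higher in both Balb/cJ KLA libraries, as did 18.8% of all 10357 models. Nlrc5 was at 2.02 and 2.45 RPKM in C57Bl/6EiJ and at 1.80, 1.94 and 1.59 in Balb/cJ.

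The test of that split, the interaction of KLA and strain, passed in 0 members and in 0 of all models (limma, 1 residual degree of freedom), and 1 member had an unadjusted p under 0.05 (8.06% of models). It was largest for Tap2 (1.45 ± 0.50, adjusted p = 0.601) and Psmb8 (1.27 ± 0.55, adjusted p = 0.645). Both Balb/cJ differences were taken against 1 Veh library, which is the lowest of all 13 in Psmb8, Psmb10, Tap1 and Tap2 and has 32 to 63 reads of each, so 1 library decides the direction there. Balb/cJ KLA replicate 2 carries a later label date than that library and KLA replicate 1, which share theirs. Without that library the fitted KLA difference was -0.46 for Psmb8, -0.41 for Psmb10, -0.31 for Tap2, -0.61 for Tap1, -0.16 for Tapbp and -0.04 for H2-K1, the C57Bl/6EiJ difference alone.

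**Figure D4:**
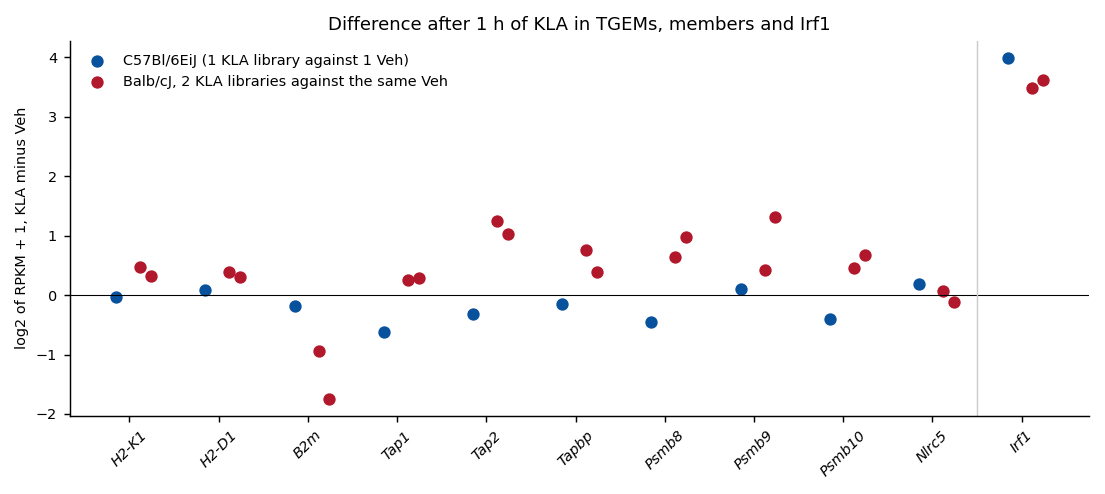
Difference in log2 of RPKM + 1 between KLA and Veh for the 10 members and Irf1 in TGEMs, 1 point a KLA library against the Veh library of its strain. Irf1 lies above 3 in all 3 libraries, and 6 members lie below 0 in C57Bl/6EiJ and above 0 in both Balb/cJ libraries.

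The strains also differ in haplotype, and the comparison of Balb/cJ with C57Bl/6EiJ passed in 0 members, where 2.31% of models did, 0.859% higher and 1.45% lower. An unadjusted p under 0.05 was seen in 2 members (21.4% of models). H2-K1 was at 752 to 1051 RPKM in Balb/cJ and at 499 to 512 in C57Bl/6EiJ without overlap (0.81 ± 0.26, adjusted p = 0.147). H2-D1 was at 1343 to 1757 against 1624 to 1718 (-0.12 ± 0.24, adjusted p = 0.794). Tap1, Tap2, Tapbp, Psmb8 and Nlrc5 were each lower in all 3 Balb/cJ libraries than in both C57Bl/6EiJ libraries, so that 6 of 10 members did not overlap (35.1% of all models), and with adjusted p of 0.185 to 0.665 none of these 5 passed. Of 15 other class I chains at 1 RPKM or more in both strains 2 were higher in Balb/cJ, H2-Q6 and H2-Q8, which share a locus, and 0 lower. H2-Q5 was at 0 and 0.783 RPKM in C57Bl/6EiJ and at 18.1, 36.9 and 19.7 in Balb/cJ, with no test given, since it was kept through Balb/cJ alone. H2-Q6, a Qa-2 chain whose model shares its span with H2-Q8, was at 3.33 and 4.10 RPKM and at 91.9, 75.6 and 49.7 (3.96 ± 0.32, adjusted p = 0.00152). The authors aligned Balb/cJ reads to that strain's own version of mm10, label dates differ between the strains, and GC content and fold change were again related (rho -0.45), so haplotype, alignment, date and library cannot be told apart. H2-Q5 and H2-Q6 share 35.1% and 31.5% of their windows with other genes. Of 9 macrophage markers 0 passed as higher and 1 as lower in Balb/cJ, and 0 lay higher and 5 lower without overlap (35.1% of all models in either direction). The part of these markers in the strain differences was not tested.

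The last comparison set primary against immortalised macrophages of one strain, C57Bl/6EiJ Veh TGEMs (1 library, taken to vary like the other groups) against Scramble iBMDMs. The p-values borrow the spread of the other groups and do not measure error between TGEM libraries, and cell type, label date and the sex markers given above cannot be told apart. H2-D1 and Tapbp were higher in the TGEM library and Nlrc5 was lower, where 15.5% of 10929 models were higher, 27.3% lower and 42.8% passed in all. H2-D1 measured 1624 RPKM against 581 and 496 (1.60 ± 0.33, adjusted p = 0.00541) and Tapbp 187 against 71.7 and 62.1 (1.47 ± 0.26, adjusted p = 0.00244), and both passed in all 11 alternatives, which rest on the same TGEM library. Nlrc5, the transactivator of class I genes, measured 2.02 RPKM against 7.29 and 6.19 (-1.35 ± 0.23, adjusted p = 0.00209), and passed in each alternative but the one that asks for 16 RPKM. H2-K1 was at 512 against 466 and 407 (0.23 ± 0.29, adjusted p = 0.546) and B2m at 1925 against 1908 and 1825 (0.04 ± 0.35, adjusted p = 0.934). Tap1 was at 15.6, Tap2 at 21.5, Psmb8 at 62.4, Psmb9 at 26.3 and Psmb10 at 36.9 RPKM in the TGEMs, with adjusted p of 0.221 to 0.685. Fold changes rose with GC content here too (rho 0.44), and models of 55% to 60% GC had a median of 0.46 against -0.24 over all models.

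The heavy chains stood in different proportions. H2-D1 over H2-K1 was 3.17 and 3.44 in C57Bl/6EiJ TGEMs, 1.67 to 1.78 in Balb/cJ TGEMs and 0.944 to 1.44 in the 8 iBMDM libraries. These 3 ranges do not overlap. Reads shared with paralogues such as H2-L, and the separate genome version used for Balb/cJ reads, were not adjusted for in these ratios. B2m over the sum of both heavy chains was 0.901 and 0.765 in C57Bl/6EiJ TGEMs, 0.627 to 2.61 in Balb/cJ TGEMs and 1.82 and 2.02 in Scramble, so that the Balb/cJ range spans the others. Immunoproteasome subunits stood at 0.88 to 3.30 (Psmb8 over Psmb5), 0.0873 to 0.176 (Psmb9 over Psmb6) and 0.475 to 0.682 (Psmb10 over Psmb7) of their constitutive counterparts in TGEMs, and at 0.573 to 1.44, 0.0734 to 0.352 and 0.164 to 0.707 in iBMDMs. The ranges overlap, for Psmb10 over Psmb7 through Atf3KO replicate 2 alone, since the 6 iBMDM libraries not labelled Atf3KO lay at 0.164 to 0.396 and Atf3KO replicate 1 at 0.298. Of the Psmb5 windows 59.0% are shared with other transcripts.

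**Figure D5:**
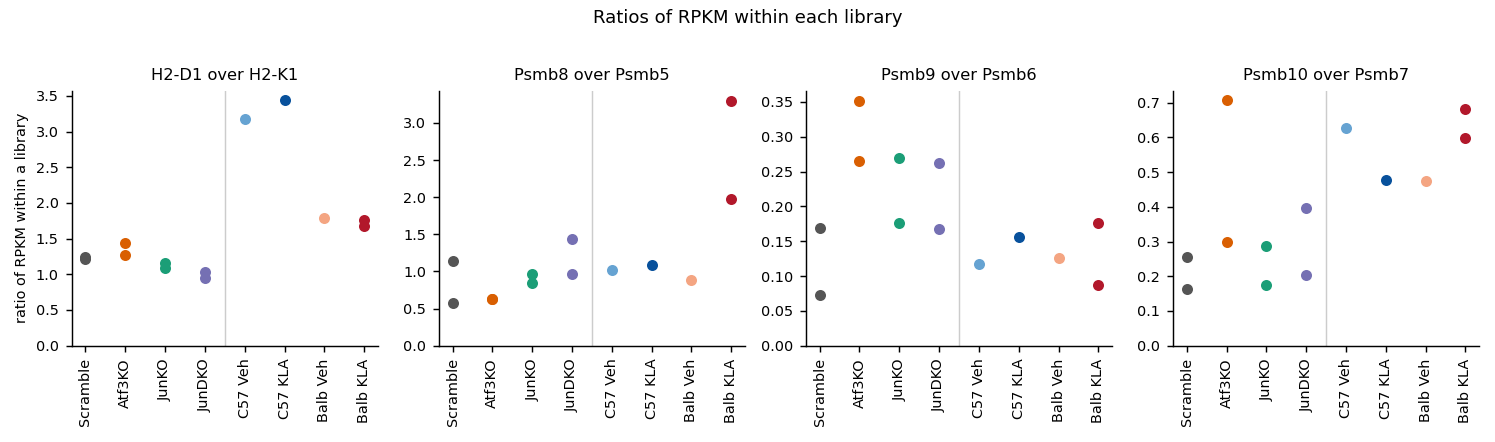
Ratios of RPKM within each of the 13 libraries, 1 point a library, for H2-D1 over H2-K1 and for each immunoproteasome subunit over the constitutive subunit it replaces. The vertical line separates iBMDMs from TGEMs, and the C57Bl/6EiJ TGEM points of the first panel, at 3.17 and 3.44, are above all others.

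Of 20 interferon response genes at 1 RPKM or more in both, 18 were lower in the C57Bl/6EiJ Veh TGEM library and 0 higher (27.3% of all models were lower and 15.5% higher), with Usp18 at -5.07 ± 0.23 (adjusted p = 4.78e-06). Of 26 regulators 3 were higher and 5 lower. Rela, an NF-kB subunit, was higher (1.15, adjusted p = 0.015), as was Tyk2 (0.93, adjusted p = 0.0188), and neither passed with the GC trend removed. Irf7 was lower (-2.10, adjusted p = 0.000382), and Rfx5 was at 1.62 RPKM against 6.57 and 6.15 (-1.49 ± 0.25, adjusted p = 0.00213). Irf1 and Irf8 did not pass (adjusted p = 0.158 and 0.153). Of 12 loading genes 6 were lower and 0 higher, led by Hspa5 (-3.41 ± 0.27, adjusted p = 5.43e-05) and Pdia3, the oxidoreductase of the loading complex (-2.34 ± 0.35, adjusted p = 0.00111). Of 13 other class I chains 4 were higher and 0 lower, led by Fcgrt (2.12 ± 0.38, adjusted p = 0.00257) and H2-L (1.87 ± 0.42, adjusted p = 0.00757). Of the proteasome partners Psme2 was lower (-3.02 ± 0.36, adjusted p = 0.000343), Psmb6 higher (1.02 ± 0.28, adjusted p = 0.0174) and Psmb7 lower (-0.95 ± 0.26, adjusted p = 0.0193), the last not passing under the other scalings. Of 9 macrophage markers 6 were lower and 2 higher in that library, and summed to 8059 RPKM against 22457 and 24039 in Scramble. The B cell and mesothelial markers given above were present in the TGEM library and near 0 in iBMDMs, and the part of these markers in these differences was not tested.

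Among all other genes of the iBMDM libraries, those most like the members in their pattern were sought. The mean of the 10 members' standardised log2 values was highest in Atf3KO replicate 2 (1.34) and lowest in Scramble replicate 2 (-0.84). Of 4192 models with a mean of 16 RPKM or more, the highest Pearson correlations with that mean over the 8 libraries were those of Bsg (0.97), Crlf2 (0.96), Snx15 (0.96), Ddost (0.959) and Piezo1 (0.959). The 8 points share 4 groups and the same depth and base composition of each library, and the 5 genes have a GC content of 55.7% to 65.9%. Each member is part of that mean, so its own correlation with it is not comparable with those of other genes, and it was 0.915 for H2-K1, 0.906 for Tap1 and 0.89 for H2-D1, but 0.23 for Nlrc5 and -0.118 for B2m.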

How the data were processed

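PolyA RNA-seq of 13 mouse macrophage libraries was used, and 4 GRO-seq samples were not analysed here. The authors deposited RPKM per gene model, made with STAR and HOMER on mm10 (versions and strand setting not given in the sources used here). Values of at most 50 reads were whole reads within 0.05 in every library, which gave the depths. Models averaging 1 RPKM or more in the fitted libraries were tested on log2(RPKM + 1) with limma 3.58.1 (trend) in R 4.3.3, with Benjamini-Hochberg adjustment over all tested models, and an adjusted p under 0.05 counts as passing. Fold changes are on that scale and understate changes of low genes. The 8 iBMDM libraries shared 1 fit (4 residual degrees of freedom), the 5 TGEM libraries another, and all 13 the comparison of cell types (5 residual degrees of freedom).

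All 10 members are named. The rule for each other list took up to 2 passing genes with the largest rise and 2 with the largest fall at 16 RPKM or more, of which only some are given for the comparisons between knockouts and those tested through one group alone are given as levels or left out, with Irf1, Irf8, Rfx5 and Psmb5 to Psmb7, and Ifnb1, H2-L beside H2-D1 and the 5 most similar genes. Ifnb1 was chosen after its values were seen, and 1 regulator that this rule names is not reported here. The members and lists were chosen with earlier results of these data known. The alternatives were other pseudocounts (0.25 and 5), filters, scalings, removal of the GC trend of each library (a spline with 5 degrees of freedom), voom on the recovered reads, replicate blocks, fits of fewer libraries and each library left out. The code was tested on simulated data.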

Additional observations from a re-analysis of the deposited data

How the results depend on the processing

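The number of members passing changed with the setting in the comparisons of knockouts. In the libraries labelled Atf3KO against Scramble it was 4, but 2 with no filter on low values, 1 with a 2-fold change and 16 RPKM also required, 1 in a fit of those 2 groups alone, and 1 to 6 when 1 library was left out. For JunDKO against Atf3KO it was 3, but 5 with voom and 1 to 6 when 1 library was left out. For Atf3KO against JunKO it was 4, but 2 with no filter, 2 with the stricter call, 1 in the fit of 2 groups and 0 to 7 when 1 library was left out. For JunDKO against Scramble it was 0, but 1 at equal library medians, 1 without the libraries labelled Atf3KO and 3 with the GC trend removed, and for JunDKO against JunKO 0, but 1, 1 and 4. Voom also gave 0 in each comparison where the count was 0. The cause of these changes was not tested. With the GC trend removed Psmb8 passed with the opposite sign, at -0.44, in Atf3KO against Scramble.

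No label says that a replicate number marks a shared batch. Correlations of same-numbered deviations were 0.185 to 0.225 among Scramble, JunKO and JunDKO, and -0.215 to -0.12 for pairs with Atf3KO. With a replicate block 3 members passed in Atf3KO against Scramble, 3 in JunDKO against Atf3KO, 3 in Atf3KO against JunKO and 0 in the other 3 comparisons of iBMDMs. With the Atf3KO numbers exchanged, an alternative added after seeing the data, a block gave 5 in each of the 3 comparisons with Atf3KO. With the block in a fit without the libraries labelled Atf3KO, likewise added, 2 members passed in JunDKO against Scramble, 2 in JunDKO against JunKO and 0 in JunKO against Scramble. With the block and the GC trend removed, also added after seeing the data, 3 members passed in JunDKO against Scramble and 4 in JunDKO against JunKO, and the values of Psmb8 (-0.44), B2m (0.41) and Tap2 (-0.49) in Atf3KO against Scramble and of B2m (0.30) in Atf3KO against JunKO passed with the opposite sign.

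Of 1500 member values under alternatives, 51 lost and 44 gained a pass, 5 passed with the sign turned, as named above, and 93 changed sign without passing in either setting. Depth limits Psmb9 most, with as few as 9 reads, and the fewest of Nlrc5 and Tap2 were 29 and 32.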
